A study of Mus musculus with 3 samples.

Results

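The DNA replication genes described here are 46 genes of the mouse. Apart from Mcm8, a relative of the MCM proteins that works in recombination, they serve to copy the nuclear genome or supply its building blocks. They encode the origin recognition complex, the licensing factors, the MCM helicase and the proteins that activate it, and the replicative polymerases and primase. Further members are the sliding clamp and its loader, the enzymes that join Okazaki fragments, replication protein A and 4 enzymes of nucleotide supply. The loci of the 46 genes were found by gene name. All 46 were found among the 48626 loci of the expression table. For 44 the locus held transcripts of that gene only. The locus of Mcm6 also held Dars, which encodes an aspartyl-tRNA synthetase, and that of Orc5 also held Gm15421, so the values of these loci cannot be split between their genes and are given as those of joined loci.

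The study sequenced total RNA from the heart ventricle of C57BL/6 mice at E10.5 and E13.5, where E is the embryonic day, and of adults of 8 weeks. Each stage has 1 paired-end library made with a stranded total RNA kit, and the labels name no genetic change or treatment. How many animals went into a library is not given in the sources used here. Values are FPKM, the number of sequenced fragments per kilobase of transcript scaled to the size of the library, so levels can be compared between genes. Where 3 values are given in a row they are those of E10.5, E13.5 and the adult, in this order. Without replicates no difference has an error or a test, and each value comes from 1 library alone. Fragment numbers were estimated from the steps among low values of FPKM times transcript length in kb. The step was 0.0725 in the E10.5 and adult libraries and 0.0375 in the E13.5 library. Taken as 1 fragment, the step gives about 13.8 fragments for 1 FPKM over 1 kb in the E10.5 and adult libraries. For the E13.5 library it gives 26.7. That a step stands for 1 fragment was not tested, so the fragment numbers given below are rough.

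Before a cell divides, the origin recognition complex marks the sites where replication starts, and Cdc6 and Cdt1 load the ring-shaped MCM helicase there. Cdc45 and the GINS complex switch the helicase on in S phase, and polymerases alpha, delta and epsilon then copy the strands behind it. Heart muscle cells divide in the embryo and largely stop dividing soon after birth, and many of these genes are known targets of E2F transcription factors, which act in cycling cells.

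In the ventricle, the replication genes were present as a group at both embryonic stages and low in the adult. All 46 were at 1 FPKM or more at E10.5 and at E13.5, and 37 in the adult. Their median level was 26.1, 30.44 and 3.024 FPKM, and together they held 0.448%, 0.424% and 0.0864% of the FPKM of all mRNA loci.

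**Figure D1:**
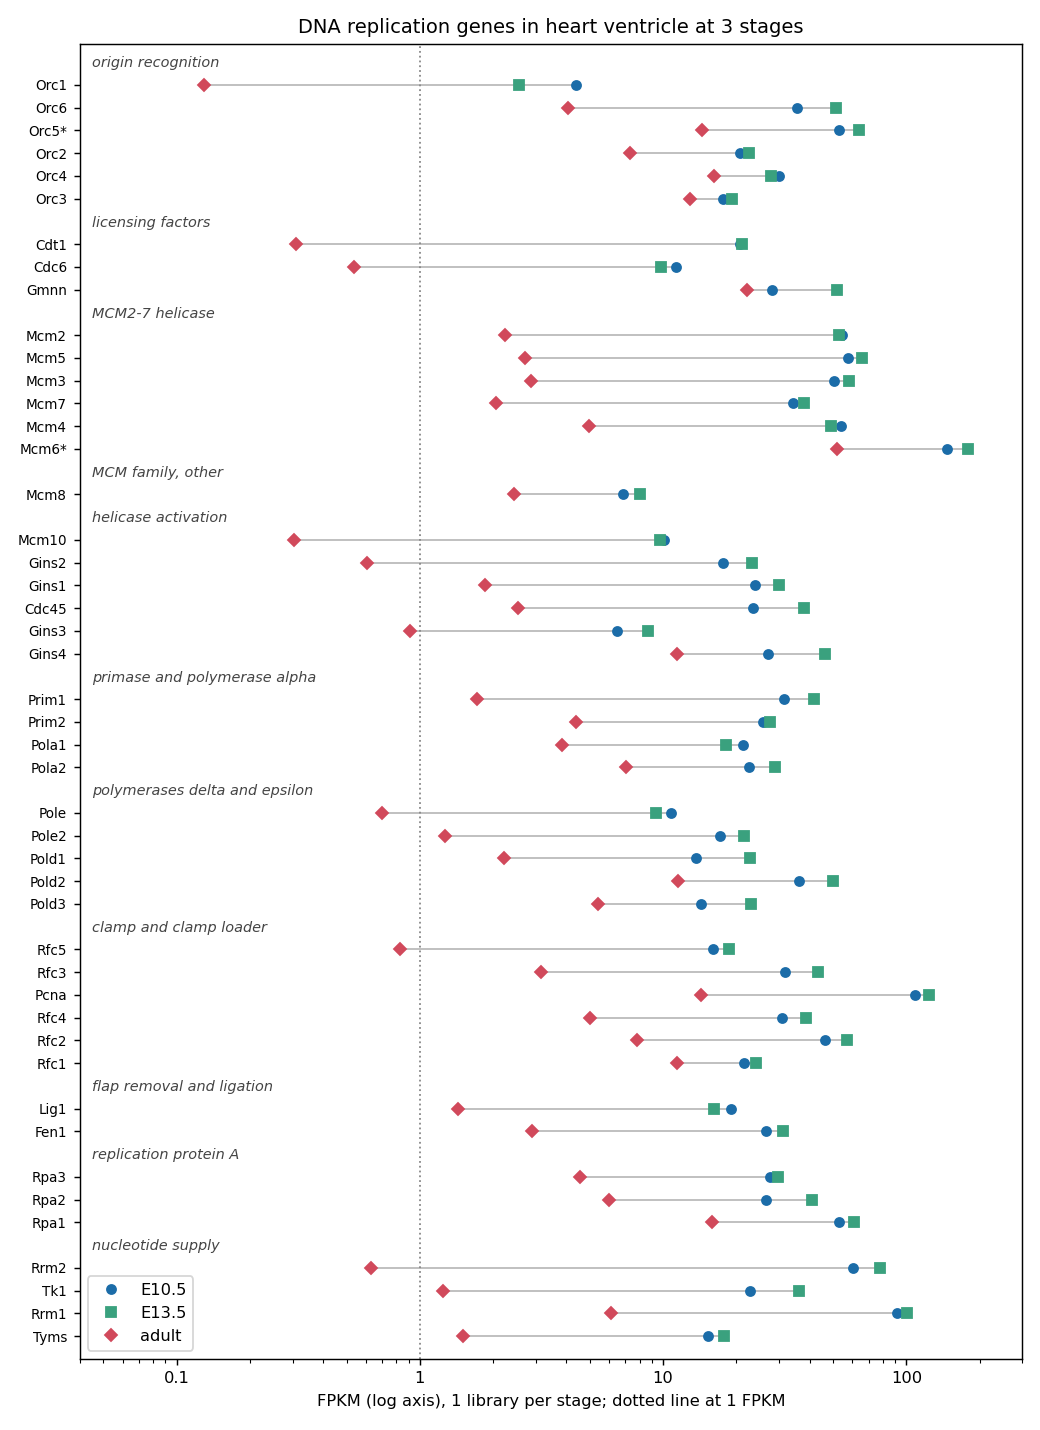
FPKM of each of the 46 replication genes on a log axis (circles E10.5, squares E13.5, diamonds adult), 1 library per stage, grouped by role and, within a role, ordered by the adult level as a share of E10.5. An asterisk marks the joined loci of Mcm6 and Orc5; in every row the adult symbol lies to the left of both embryonic symbols, from close by for Orc3 and Gmnn to far away for Rrm2.

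A change is given below as the later minus the earlier value of log2(FPKM + 1), a scale on which low genes appear to change less than they do, and it was called when it reached 2 in size. From E10.5 to the adult all 46 genes were lower, 31 of them past the threshold, while 8.1% of the 12569 mRNA loci at 1 FPKM or more in some library were called lower. Among the 9762 of those loci that were at 3 FPKM or more at E10.5, and so could fall by 2, 10.4% were called lower. None of the 46 genes was called higher, against 5.59% of the loci. The median change of the replication genes was -2.74 and that of all these loci was -0.40. Scaling by the median of ratios brings the typical locus close to no change by design. The medians were then -2.43 and -0.06, and 45 replication genes were lower and 1 higher. With libraries scaled to equal sums without globin and mitochondrial loci the medians were -2.76 and -0.39. A shift left by the scaling and a broad fall of mRNA loci cannot be told apart here.

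From E13.5 to the adult the replication genes changed in the same direction, in a comparison that shares the adult library. All 46 genes were lower, and 33 were called lower against 9.88% of all mRNA loci and 12.5% of the 9901 loci at 3 FPKM or more at E13.5. None was called higher, against 4.41% of the loci, and the median change was -2.82.

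Between the embryonic stages the replication genes moved little. No gene was called in either direction, which in a list of this size is close to the shares of 0.851% higher and 0.247% lower over all loci. The median change was 0.21 as deposited, beside 0.17 over all loci, and -0.08, beside -0.08, when the libraries were scaled to equal sums without globin and mitochondrial loci. As deposited 37 genes were higher at E13.5 and 9 lower, after scaling by the median of ratios 30 were higher and 16 lower, and with equal sums 18 were higher and 28 lower, so the common direction rests on the scaling. The largest differences were a rise of 0.86 for Gmnn, a rise of 0.76 for Gins4 and a change of -0.59 for Orc1. The longest matched transcripts of these genes had 977, 1364 and 5009 bases, and that of Pold1, with a rise of 0.69, had 3424. Whether transcript length bears on the differences between these libraries was not tested.

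The adult level relative to E10.5 varied widely among the genes. Of the 44 genes with a locus of their own, 21 were in the adult at under 10% of their E10.5 FPKM, 8 of these at under 5%, while 13 were at 10 to 30% and 10 at 30% or more. The share ran from 1.04% for Rrm2 to 79.2% for Gmnn. In tissue RNA, fewer cells that express a gene and less of its RNA per cell cannot be told apart.

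The subunits of the origin recognition complex spread over much of this range, from 2.96% for Orc1 to 72.7% for Orc3. Orc1, the large ATPase subunit, was at 4.373, 2.563 and 0.1293 FPKM, the adult value resting on about 8.9 fragments (chromosome 4, 108579454 to 108616828). Orc6 was at 35.61, 51.47 and 4.063 FPKM. These were the members of the complex called lower, with changes from E10.5 to the adult of -2.25 and -2.85.

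The other subunits kept a larger share of their E10.5 level. Orc2 was at 20.62, 22.61 and 7.319 FPKM and Orc4 at 30.09, 27.69 and 16.18 FPKM. Orc3 (chromosome 4, 34566781 to 34614942) was at 17.66, 19.2 and 12.84 FPKM, a change of -0.43 that is close to the median of all loci. Orc3 stood at 4.04, 7.49 and 99.2 times the level of Orc1. The joined locus of Orc5 was at 53.03, 63.63 and 14.44 FPKM, a change of -1.81.

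Among the licensing factors, the loaders were called lower in the adult and their inhibitor was not. Cdt1 (chromosome 8, 122567987 to 122573194), which brings the MCM ring to the origin, was at 20.68, 21.14 and 0.3096 FPKM, and its adult value rested on about 9.4 fragments. Cdc6, the ATPase that works with it, was at 11.29, 9.835 and 0.5381 FPKM. Their changes from E10.5 to the adult were -4.05 and -3.00.

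Gmnn (chromosome 13, 24751845 to 24761937), which encodes geminin, the protein that binds Cdt1 and blocks a further round of loading, was at 28.01, 51.67 and 22.19 FPKM. It changed from E10.5 to the adult by -0.32 as deposited and 0.07 after scaling by the median of ratios, so its direction rests on the scaling. From E13.5 to the adult it changed by -1.18. The ratio of Gmnn to Cdt1 was 1.35 and 2.44 in the embryo and 71.7 in the adult.

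The MCM2-7 helicase is a ring of 6 related subunits that unwinds the DNA, and the 5 subunits with a locus of their own fell together. Mcm2 was at 54.16, 52.98 and 2.248 FPKM, Mcm3 at 50.27, 58.1 and 2.858 and Mcm4 at 53.65, 48.8 and 4.963. Mcm5 was at 57.73, 65.67 and 2.718 FPKM and Mcm7 at 34.33, 37.91 and 2.061. All 5 were called lower in the adult, with changes from E10.5 between -4.09 for Mcm2 and -3.20 for Mcm4. Their levels lay close to each other at every stage, with the highest 1.68, 1.73 and 2.41 times the lowest.

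The joined locus of Mcm6 and Dars was at 147.1, 179.1 and 51.98 FPKM, a change of -1.48, above all other subunits in each library. Mcm8, a relative of these proteins that works in recombination rather than in the replicative ring, was at 6.87, 8.07 and 2.445 FPKM, a change of -1.19. Mcm9, which acts with Mcm8 and is not among the 46 genes, was at 6.889, 4.507 and 2.937 FPKM. Mcm3ap, an mRNA export factor named for its binding to Mcm3, was at 10.76, 6.157 and 5.55 FPKM. Mcm8 stood at 0.127 times the level of Mcm2 at E10.5 and at 1.09 times in the adult.

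The factors that switch the helicase on were less uniform. Mcm10, which is needed to start unwinding, was at 10.04, 9.727 and 0.3025 FPKM, and Cdc45, a part of the active helicase, at 23.31, 37.82 and 2.523 FPKM. Of the 4 GINS subunits, Gins1 was at 23.86, 29.89 and 1.858 FPKM and Gins2 at 17.58, 23.21 and 0.609 FPKM, the last value on about 8.7 fragments. Gins3 was at 6.484, 8.689 and 0.9112 FPKM and Gins4 at 26.92, 46.14 and 11.41 FPKM.

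Although these 4 proteins form a complex, the adult RNA was 3.46% of the E10.5 level for Gins2, 7.79% for Gins1, 14.1% for Gins3 and 42.4% for Gins4. Mcm10, Cdc45, Gins1 and Gins2 were called lower from E10.5 to the adult, and Gins3 with -1.97 lay just short of the threshold.

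Polymerase alpha and primase make the short primers from which the other polymerases extend. Prim1, the catalytic primase subunit, was at 31.54, 41.87 and 1.717 FPKM, a change from E10.5 to the adult of -3.58. Prim2 was at 25.83, 27.41 and 4.371 FPKM, Pola1, the catalytic subunit of polymerase alpha, at 21.33, 18.14 and 3.842 FPKM, and Pola2 at 22.58, 28.93 and 7.007 FPKM. Pola2, with a change of -1.56, was the only subunit of the 4 not called lower.

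Polymerase epsilon copies the leading strand and polymerase delta the lagging strand. Pole, the catalytic subunit of polymerase epsilon, was at 10.73, 9.348 and 0.7009 FPKM and its partner Pole2 at 17.15, 21.59 and 1.268 FPKM. Pold1, the catalytic subunit of polymerase delta, was at 13.67, 22.74 and 2.219 FPKM. All of these were called lower, with changes between -2.19 for Pold1 and -3.00 for Pole2.

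The accessory subunits of polymerase delta were not called. Pold2 was at 36.12, 50.07 and 11.55 FPKM and Pold3 at 14.31, 23.07 and 5.389 FPKM, with changes of -1.56 and -1.26. The small subunit Pold4, from the list of other fork proteins, was at 9.281, 15.28 and 10.61 FPKM. In the adult library all 3 accessory subunits were listed above the catalytic subunit Pold1. Pold2 and Pold3 were above it at both embryonic stages as well, and Pold4 only in the adult.

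Pcna, the ring that holds the polymerases on the DNA, was at 108.2, 123.5 and 14.35 FPKM, the highest level of any member with a locus of its own in both embryonic libraries. The clamp loader that opens this ring has a large subunit, Rfc1, and 4 small subunits. Rfc5 was at 16.1, 18.62 and 0.8253 FPKM, Rfc3 at 31.68, 43.49 and 3.15, Rfc4 at 30.91, 38.77 and 4.993 and Rfc2 at 46.37, 57.23 and 7.778. Pcna and the small subunits were called lower, with changes from E10.5 to the adult of -2.83 for Pcna and of -2.41 to -3.23 for the subunits.

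Rfc1 was at 21.42, 24.0 and 11.4 FPKM, a change of -0.85. The ratio of Rfc1 to Rfc5 was 1.33 and 1.29 in the embryo and 13.8 in the adult.

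On the lagging strand, Fen1 cuts the flap left by the primer and Lig1 seals the nick. Fen1 was at 26.6, 30.99 and 2.897 FPKM and Lig1 at 19.06, 16.19 and 1.435 FPKM, changes of -2.82 and -3.04. Replication protein A, which coats single-stranded DNA in replication and in repair, changed less. Rpa1 was at 53.05, 61.15 and 15.81 FPKM, Rpa2 at 26.38, 40.85 and 5.972 and Rpa3 at 27.5, 29.7 and 4.565. Rpa3 alone of these was called lower from E10.5 to the adult, with -2.36, beside -1.69 for Rpa1 and -1.97 for Rpa2.

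The enzymes of nucleotide supply included the gene with the largest fall. Rrm2 (chromosome 12, 24708254 to 24714146), the small subunit of ribonucleotide reductase that is made in S phase, was at 60.46, 77.78 and 0.6306 FPKM, a change from E10.5 to the adult of -5.24. The large subunit Rrm1 was at 91.71, 101 and 6.104 FPKM. Tk1, the cytosolic thymidine kinase, was at 22.72, 36.36 and 1.248 FPKM, and Tyms, the thymidylate synthase, at 15.23, 17.87 and 1.501 FPKM. All 4 were called lower.

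Several of these genes have a counterpart that serves mitochondria or cells outside S phase, and the order within such pairs was inverted in the adult. Rrm2b, the small reductase subunit of resting cells, was at 8.957, 7.758 and 12.46 FPKM, so that Rrm2 stood at 6.75, 10.03 and 0.0506 times its level. Tk2, the mitochondrial thymidine kinase, was at 4.404, 5.569 and 3.999 FPKM, and the ratio of Tk1 to Tk2 went from 5.16 and 6.53 in the embryo to 0.312 in the adult. Lig3, a ligase that serves repair and the mitochondria, was at 15.56, 13.53 and 8.733 FPKM, and Lig1 stood at 1.23, 1.2 and 0.164 times its level. Ratios within a library do not depend on its scaling.

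**Figure D2:**
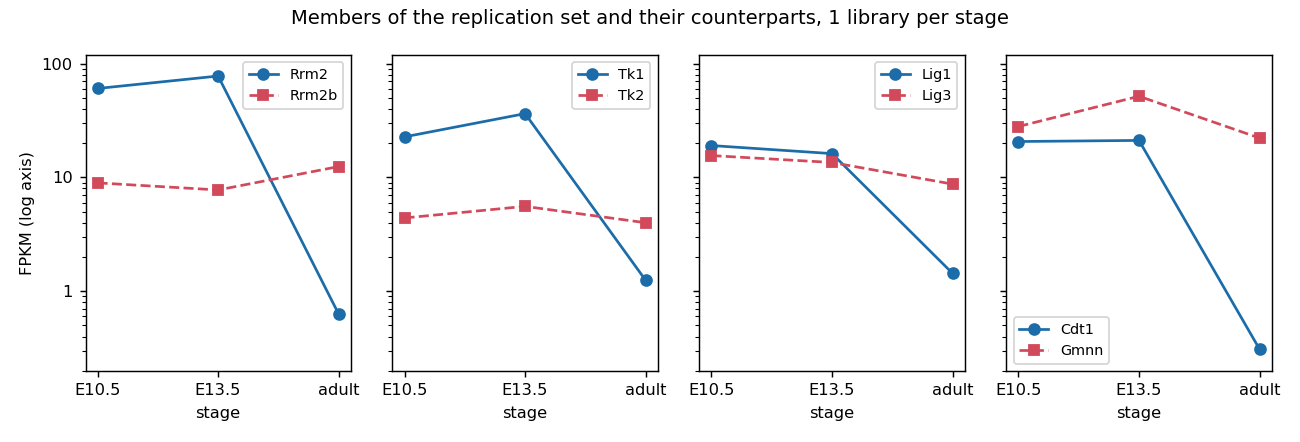
FPKM on a log axis against stage, 1 library each, for Rrm2 and Rrm2b, Tk1 and Tk2, Lig1 and Lig3, and Cdt1 and its inhibitor Gmnn. In the first 3 panels the solid line of the replication gene starts above the dashed line of its counterpart and ends below it, and in the last panel Cdt1 drops to 0.3096 FPKM while Gmnn ends at 22.19.

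Among 29 other proteins of the replication fork, 18 were called lower from E10.5 to the adult, beside 8.1% of all mRNA loci. None was called higher, which in a list of this size is close to the 5.59% over all loci, and the median change was -2.21. The largest falls were those of Top2a, the topoisomerase that separates the daughter strands, at 112.7, 131.3 and 1.456 FPKM, of Pclaf, a partner of Pcna, at 35.77, 90.64 and 1.002 FPKM, and of Dbf4, the activator of the kinase that fires origins, at 26.11, 27.83 and 1.15 FPKM. At the other end stood Pold4, with a change of 0.18, Pole3, a polymerase epsilon subunit that also works in chromatin remodelling, at 19.22, 30.07 and 10.33 FPKM, and Mcmbp, an MCM-binding protein, at 25.88, 24.75 and 11.11 FPKM. Pold4 and Pole3 thus kept a larger part of their RNA than the catalytic subunits Pold1 and Pole.

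Of 10 further loci of nucleotide supply, 5 were called lower from E10.5 to the adult, beside 8.1% of all mRNA loci, with a median change of -2.06. None was called higher, which in a list of this size is close to the 5.59% over all loci. Dtymk, the thymidylate kinase, was at 82.25, 91.46 and 9.571 FPKM and Dck, the deoxycytidine kinase, at 20.28, 17.83 and 2.722. Rrm2b, with a change of 0.43, and Samhd1, which breaks nucleotides down, at 11.99, 7.181 and 14.12 FPKM, were the only ones higher in the adult. The joined locus of Nme1 and Nme2 changed by -0.69.

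The cyclins of S phase had the largest falls of their list. Of 12 genes of S-phase control and checkpoint, 6 were called lower from E10.5 to the adult, beside 8.1% of all mRNA loci. None was called higher, which in a list of this size is close to the 5.59% over all loci, and the median change was -2.06. Ccna2, cyclin A2, was at 114.5, 150.5 and 0.7871 FPKM, Ccne1 at 21.21, 17.05 and 0.5071 and Ccne2 at 47.0, 45.28 and 1.818. The checkpoint genes Rad17, at 27.5, 32.48 and 20.24 FPKM, and Hus1, at 7.136, 6.529 and 4.415, changed little, and the locus that joins Atrip with Trex1 was at 6.649 and 15.52 FPKM in the embryo and changed by 1.39 from E10.5 to the adult.

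The mitochondrial list held 13 genes for proteins that replicate, transcribe or repair mitochondrial DNA or supply its nucleotides. None was called in either direction from E10.5 to the adult. In a list of this size that is close to the shares of 8.1% lower and 5.59% higher over all loci. The median change of the 13 genes was -0.22 as deposited, with 4 higher and 9 lower. After scaling by the median of ratios it was 0.13, with 9 higher and 4 lower. Polg, the mitochondrial polymerase, was at 9.785, 11.05 and 8.847 FPKM. Dguok, the mitochondrial deoxyguanosine kinase, was at 12.49, 23.34 and 16.78 FPKM, Ssbp1, the mitochondrial single-strand binding protein, at 14.16, 26.73 and 16.82, and Tfb2m, a mitochondrial transcription factor, at 9.48, 10.17 and 27.09. The largest changes downward were -1.61 for Polg2, the accessory subunit of that polymerase, and -1.28 for Primpol.

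The E2F family and its partners were divided. Of 18 genes 5 were called lower from E10.5 to the adult, beside 8.1% of all mRNA loci, with a median change of -1.55. None was called higher, which in a list of this size is close to the 5.59% over all loci. E2f1, an activator, was at 8.671, 5.044 and 0.8437 FPKM, E2f7 at 6.845, 3.524 and 0.5089 and E2f8 at 7.711, 3.487 and 0.1707, the last of these being repressors made in cycling cells. E2f4, a repressor in resting cells, was at 12.68, 13.21 and 6.868 FPKM. Rb1, the retinoblastoma protein that restrains E2F, was at 7.179, 4.432 and 11.42 FPKM, its relative Rbl2 at 5.02, 7.311 and 13.47, and Tfdp2, a dimer partner of E2F, at 10.31, 9.69 and 17.65. These 3 were higher in the adult with either scaling, with changes below the threshold.

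**Figure D3:**
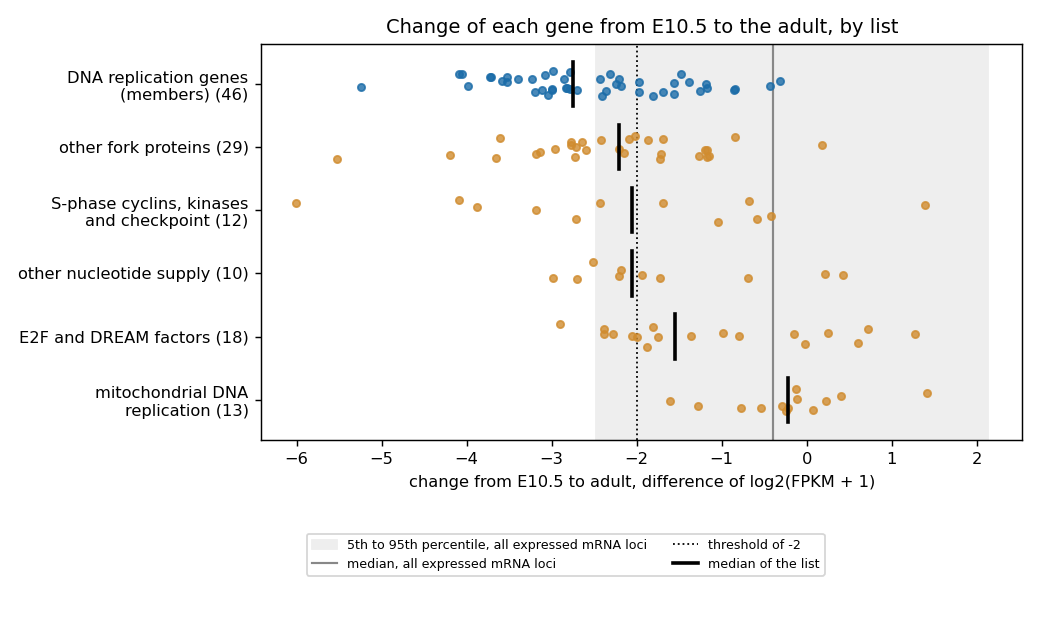
Change from E10.5 to the adult (difference of log2(FPKM + 1)) of each gene as a point, for the 46 replication genes and 5 further lists, with the number of genes in brackets and a black bar at each median. The grey band spans the 5th to 95th percentile of all expressed mRNA loci, -2.48 to 2.13, and the grey line their median of -0.40. The black bar of the replication genes lies at -2.74 and that of the mitochondrial list at -0.22.

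Promoters of the replication genes were searched for short motifs because many of the genes fell together. RefSeq promoter windows of 250 bases before to 50 bases after a gene's start (build GRCm38.p6) were found for 38 of the 46 genes, and each of these genes had a deposited transcript matched to RefSeq that started within 250 bp of the RefSeq start, although the locus of Lig1 itself began 1513 bp away from it. The E2F motif was taken as TTTCCCGC, TTTCGCGC, TTTGCCGC or TTTGGCGC on either strand. It was present for 16 of the 38 genes (42.1%), for 4.64% of 9309 genes of expressed mRNA loci and for 2.6% of all 27025 genes with a window. A gene was counted when any of its windows held the motif. CCAAT, the NF-Y motif, was present for 63.2% of the members and for 43.0% of the expressed genes. The CHR motif of the DREAM complex (TTTGAA or TTCGAA) was present for 18.4% of the members, 16.01% of the expressed genes and 21.7% of all genes. The GC box (GGGCGG) was present for 76.3% of the members, 68.4% of the expressed genes and 38.2% of all genes. A match is a string of letters, and none of these values shows that a factor was bound.

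**Figure D4:**
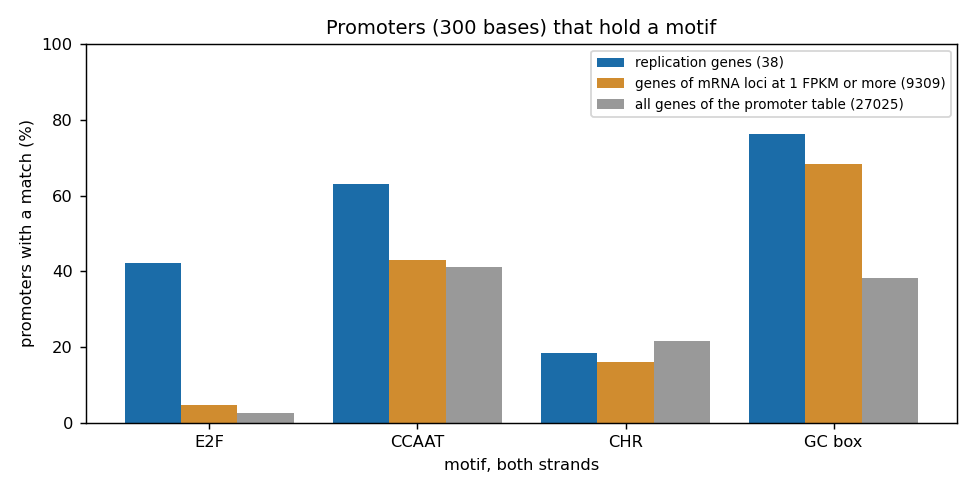
Share of genes (percent, axis from 0) with at least 1 300-base promoter window that holds each of 4 motifs on either strand. Shares are for the 38 replication genes with a window, for 9309 genes of mRNA loci at 1 FPKM or more and for all 27025 genes of the promoter table. The E2F bar of the replication genes, at 42.1%, stands far above the bars of 4.64% and 2.6% beside it, while the bars of the CHR motif are of similar height.

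The windows below are shown so that the motif can be seen in place. In each role the gene with the highest E10.5 level was taken among members with the E2F motif and a locus of their own. The joined locus of Mcm6 was passed over. Of the genes taken, the 6 highest at E10.5 are shown, and Pole2, Mcm8 and Gins3, which led other roles, are not. The windows are written 5′ to 3′ on the gene's strand in lower case, with E2F matches in capitals, and overlapping matches form a longer run of capitals. The windows are Mcm5 at chr8:75109259-75109558 (plus strand), Rfc3 at chr5:151651159-151651458 (minus), Pola1 at chrX:93632106-93632405 (minus), Cdt1 at chr8:122567765-122568064 (plus), Lig1 at chr7:13278576-13278875 (plus) and Orc3 at chr4:34614893-34615192 (minus).
Mcm5: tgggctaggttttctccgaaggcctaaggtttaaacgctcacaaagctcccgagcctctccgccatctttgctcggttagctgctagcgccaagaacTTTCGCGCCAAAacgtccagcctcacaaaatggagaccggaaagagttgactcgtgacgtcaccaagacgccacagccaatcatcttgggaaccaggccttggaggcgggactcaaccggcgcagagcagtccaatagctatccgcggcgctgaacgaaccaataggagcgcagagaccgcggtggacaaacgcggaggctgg
Rfc3: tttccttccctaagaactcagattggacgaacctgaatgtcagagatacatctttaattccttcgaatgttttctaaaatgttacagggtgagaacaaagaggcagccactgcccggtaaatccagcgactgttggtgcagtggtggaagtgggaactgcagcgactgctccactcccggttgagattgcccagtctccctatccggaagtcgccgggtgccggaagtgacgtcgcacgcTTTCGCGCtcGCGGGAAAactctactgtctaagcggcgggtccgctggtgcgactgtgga
Pola1: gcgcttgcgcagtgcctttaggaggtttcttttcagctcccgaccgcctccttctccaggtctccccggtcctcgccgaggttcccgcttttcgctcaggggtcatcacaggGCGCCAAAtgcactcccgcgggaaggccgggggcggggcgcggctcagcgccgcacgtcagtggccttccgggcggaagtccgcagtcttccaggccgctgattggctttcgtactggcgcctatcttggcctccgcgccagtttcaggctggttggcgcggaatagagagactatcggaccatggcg
Cdt1: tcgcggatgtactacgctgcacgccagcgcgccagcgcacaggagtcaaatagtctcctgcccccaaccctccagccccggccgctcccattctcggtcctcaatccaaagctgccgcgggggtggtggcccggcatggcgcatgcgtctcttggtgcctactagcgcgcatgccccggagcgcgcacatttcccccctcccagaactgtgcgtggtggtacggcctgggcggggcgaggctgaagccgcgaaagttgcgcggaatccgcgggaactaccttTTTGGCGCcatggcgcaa
Lig1: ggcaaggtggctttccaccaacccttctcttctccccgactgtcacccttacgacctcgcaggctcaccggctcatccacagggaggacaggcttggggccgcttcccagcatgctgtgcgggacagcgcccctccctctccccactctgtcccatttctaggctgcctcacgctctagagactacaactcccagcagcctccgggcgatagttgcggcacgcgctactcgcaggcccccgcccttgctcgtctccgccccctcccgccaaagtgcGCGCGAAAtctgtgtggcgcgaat
Orc3: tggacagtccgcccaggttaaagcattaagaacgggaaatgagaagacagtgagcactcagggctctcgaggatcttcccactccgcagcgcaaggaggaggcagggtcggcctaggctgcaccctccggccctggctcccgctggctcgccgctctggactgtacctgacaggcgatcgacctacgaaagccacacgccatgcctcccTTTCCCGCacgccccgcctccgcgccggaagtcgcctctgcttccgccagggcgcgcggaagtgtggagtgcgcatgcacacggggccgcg

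Counted from 0 at the start base, Mcm5 had overlapping matches on both strands that began at -153 and -149, and Rfc3 had matches at -10 and 0. The match of Pola1 began at -138 and that of Orc3 at -41, while those of Cdt1 and Lig1 lay within the transcript, at 32 and 26. The adult levels of these genes differed widely, from 1.5% of E10.5 for Cdt1 through 4.71% for Mcm5 and 9.94% for Rfc3 to 72.7% for Orc3. Over the 15 genes with the motif and a locus of their own, the median adult level was 7.53% of E10.5 (range 1.5 to 72.7%), and over the 21 without it 11.4% (range 1.04 to 53.8%). The ranges overlapped almost entirely, and Rrm2, with the lowest share, had no match in its window.

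Many replication genes start next to a gene on the other strand. For 13 of the 46 (28.3%) the start of another mRNA locus on the opposite strand lay within 1000 bp, which was so for 13.1% of all expressed mRNA loci. From E10.5 to the adult 9 of these 13 replication genes were called lower. None of the 13 partners was, a count close to the 8.1% called lower over all loci. The median change was -2.79 for the replication genes and -0.36 for the partners.

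Pole and Pxmp2, which encodes a peroxisomal membrane protein, start 151 bp apart and moved in opposite directions. Pxmp2 was at 7.1214, 10.501 and 81.045 FPKM, a change from E10.5 to the adult of 3.34 beside -2.79 for Pole. Mcm4 and Prkdc, the catalytic subunit of a repair kinase, start 466 bp apart, and Prkdc was at 10.49, 4.656 and 6.751 FPKM. Cdc45 and Ufd1l, a protein of the degradation machinery of the endoplasmic reticulum, start 322 bp apart, and Ufd1l was at 17.91 and 19.97 FPKM in the embryo and changed by 0.01 to the adult, while Cdc45 fell by 2.79 on the log2 scale. Orc3 and Rars2, a mitochondrial arginyl-tRNA synthetase, start 16 bp apart and had similar levels at each stage, with Rars2 at 19.85, 22.34 and 13.39 FPKM. Mcm8 and Trmt6, a subunit of a tRNA methyltransferase, also changed alike, by -1.19 and -1.26.

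**Figure D5:**
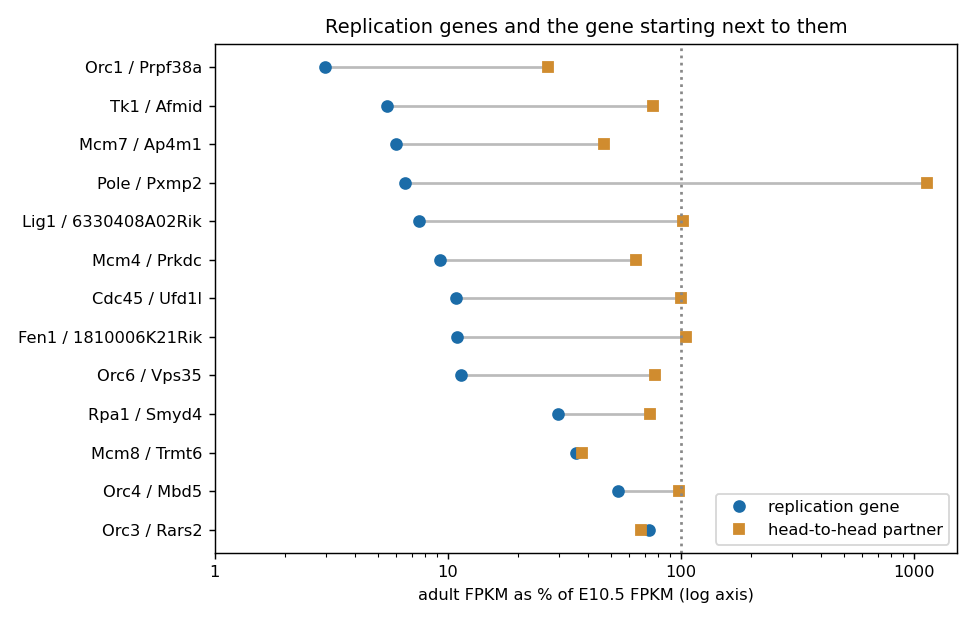
Adult FPKM as a percentage of E10.5 FPKM (log axis) for the 13 replication genes with a head-to-head partner (circles) and for that partner (squares), 1 library per stage, with a dotted line at 100%. The partner lies to the right of the replication gene in every row but that of Orc3 and Rars2, and Pxmp2 lies farthest right.

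Antisense transcripts were low. The annotation held 3 loci antisense to a replication gene. That of Orc1 was at 0.2454, 0.1639 and 0.448 FPKM, so that in the adult library it stood at 3.46 times the sense value. That of Pole2 was at 0.1848 FPKM at E10.5 and listed at 0 in the E13.5 library. In the adult library it reached 1.019 FPKM, which is 0.804 times the sense value. That of Pola2 was at most at 0.2525 FPKM. The libraries were stranded, but whether the FPKM estimate used the strand is not given in the sources used here, so the low adult values of Orc1 and Pole2 carry this limit.

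Near-identical copies elsewhere in the genome can share fragments with a gene. Of the 46 genes 9 had a further place in GRCm38 that matched at least 30% of the transcript at 90% identity or more in a single stretch. For Pcna it lay on chromosome 19 (9283238 to 9284495), at 99.3% identity over 99.8% of the length, and for Mcm7 on chromosome 16, at 97.5% over 99.2%. Rfc5, Tk1 and Rpa3 had copies of 94.4 to 96.0% identity over more than 80% of the transcript. Mcm4, Cdc6, Gmnn and Tyms had matches over shorter parts, and those of Tyms lay at 34 places. For comparison, Gapdh with 140 such places was listed at 19.42, 26.21 and 10.69 FPKM. How the authors assigned fragments that map to several places is not given in the sources used here, so the levels of these 9 genes are uncertain in this respect.

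The makeup of the tissue differed between the libraries. Of 6 cardiomyocyte markers all were well above 1 FPKM in each library, and their sum was 7650, 10550 and 11340 FPKM. Of 8 erythroid markers 6 were called lower from E10.5 to the adult, with sums of 6783, 16370 and 25.31 FPKM and Hbb-bh1 and Hba-x below 0.1 FPKM in the adult. All 6 macrophage markers rose past the threshold, from a sum of 7.221 to 54.85 and 172.8 FPKM. The endothelial sum was 290.4, 213.8 and 283.5 FPKM and the fibroblast sum 239.8, 553.4 and 486.8 FPKM, to which Dcn alone gave 49.53, 75.91 and 350.7 FPKM, while 5 of the 6 fibroblast markers were lower in the adult than at E13.5. Of the 6 lymphocyte markers only Cd79b reached 1 FPKM, in the adult, and Cd3e was listed at 0 in both embryonic libraries. From E10.5 to E13.5, 6 of the 8 erythroid markers were lower and 2 higher, and the rise of their sum came from Hbb-y, at 4356 and 15110 FPKM. Of the 8 erythroid markers 7 moved down with the replication genes from E10.5 to the adult. Alas2 did not, at 18.23, 34.12 and 19.58 FPKM. Most of the falling sum came from the embryonic globin genes Hbb-y, Hbb-bh1 and Hba-x, at 4356, 1314 and 1057 FPKM at E10.5. The list holds no adult globin gene, so its sum does not measure the number of erythroid cells. The part of erythroid cells in the fall of the replication genes was not tested.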

How the data were processed

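Total RNA of 3 ventricle samples, 1 per stage, was sequenced by the authors with paired ends. The deposited FPKM values were made by the authors, who mapped reads to mm10 with TopHat2 and assembled transcripts with Cufflinks, with and without a UCSC annotation. The processing notes also name Bowtie. Versions, options and the FPKM normalization are not given in the sources used here, and read counts were not used. mm10 is the assembly GRCm38, whose RefSeq and genome files served for promoters and copies.

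A gene was taken as the locus with a transcript matched to its name. mRNA loci were the 20117 loci with a transcript that matches a RefSeq mRNA, and 12569 of them reached 1 FPKM in some library. Changes were differences of log2(FPKM + 1), called at 2. No test was possible with 1 library per stage. The calculation was checked on simulated data. Copies were found with blastn 2.17.0 and all else was computed with Python 3.11.15, pandas 2.3.3, numpy 2.4.6 and matplotlib 3.10.9. Alternatives changed the scaling, pseudocount, threshold, low-value filter and the set of loci.

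The members and gene lists were chosen with earlier results of these data known. Every member was named. Of each further list the 3 largest falls and the 3 smallest falls or largest rises were named, with Rrm2b, Tk2, Dguok, Polg, Mcm9, E2f1, E2f4, Top2a, Pclaf, Ccne1 and Ccna2. A gene that this rule names is not reported here. Gene names Mgme1 and Rad9a were not matched. A list of 12 housekeeping genes had a median change of -0.92, and 3 relatives of the MCM proteins one of -0.84.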

Additional observations from a re-analysis of the deposited data

How the results depend on the processing

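No paired analysis was possible because there is only 1 library a stage, which also left no replicate to leave out. The counts of called replication genes and their median changes stayed within 1.5 times, or within 0.58 on the log2 scale, under every alternative run. After scaling by the median of ratios 28 of the 46 genes were called lower from E10.5 to the adult, with equal sums outside globin and mitochondrial loci 31, and with a pseudocount of 0.1 33. With that pseudocount the changes of 12 single genes with low adult values grew by more than 0.58, among them Orc1 from -2.25 to -4.29, Cdt1 from -4.05 to -5.66 and Rrm2 from -5.24 to -6.37, and Gins3 passed the threshold with -2.70. The median change from E10.5 to E13.5 turned to -0.08 with equal sums. Gmnn was the gene that turned to a higher adult value, under the median of ratios. The counts over all mRNA loci moved more. Called at a change of 1, they were 740 higher and 609 lower from E10.5 to E13.5, 1637 and 4029 from E13.5 to adult, and 1856 and 3430 from E10.5 to adult. With a pseudocount of 0.1 the same counts were 331 and 128, 977 and 2039, and 1225 and 1696. After the median of ratios 49 loci were called lower at E13.5 than at E10.5, and from E13.5 to adult 900 were called higher and 775 lower. With equal sums 80 were called lower at E13.5 than at E10.5. The restriction to loci at 3 FPKM or more was chosen after seeing the data. Adult values of replication genes under 1 FPKM rest on about 8.7 fragments for Gins2 to 69 for Pole, and no value has a replicate error. The number depends on transcript length as well, and Tk1, at 1.248 FPKM in the adult, had about 24.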
